A study of Homo sapiens with 18 samples.

Results

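The regions of open chromatin at 7 genes of the RAS and PI3K pathways, HRAS, NRAS, BRAF, NF1, PIK3CA, PIK3CB and PIK3R1, were examined in 3 head and neck squamous cell carcinoma (HNSCC) cell lines treated with cetuximab. Open chromatin was mapped by ATAC-seq, a method where a transposase cuts and tags DNA that is not packed on nucleosomes. All rows of the deposited region table that overlapped a gene body or the 20 kb on either side of it were taken as members, with gene models of GENCODE release 44 on GRCh37. This rule gave 44 of the 115087 regions: 6 at HRAS, 1 at NRAS, 7 at BRAF, 8 at NF1, 6 at PIK3CA, 10 at PIK3CB and 6 at PIK3R1. SCC1, SCC6 and SCC25 are established HNSCC lines that were responsive to cetuximab, an antibody that blocks the epidermal growth factor receptor. Each line received 100 nM cetuximab daily for 5 days or PBS, the vehicle, so the controls were of the same line and day and received no antibody. Of 18 labelled libraries, 3 per line and treatment, 17 were analysed here, with SCC1 PBS represented by replicates 1 and 3. The labels did not say whether replicates were separate cultures, so that all p-values measure the spread between these libraries, which may be technical. Each line is a single model, and a difference between lines cannot be told apart from any other property of the cultures.

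RAS proteins are small GTPases that pass the signal of activated growth factor receptors to RAF kinases and on to the MAP kinases, and NF1 ends that signal by stimulating the hydrolysis of GTP on RAS. The same receptors, in part through RAS, recruit class I PI3-kinases, which consist of a catalytic subunit such as p110 alpha or p110 beta and a regulatory subunit such as p85 alpha, and which activate AKT. Mutations that activate RAS, RAF or PI3-kinase genes and loss of NF1 are known ways by which tumour cells keep these pathways on while the receptor is blocked.

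The libraries held between 2194851 and 15017130 reads in the regions, from 2194851 to 4171650 in SCC1, from 4098164 to 15017130 in SCC6 and from 2513828 to 13408698 in SCC25. In SCC6 the cetuximab libraries reached the highest depth, and in SCC25 the PBS libraries did, with 5509462 to 13408698 reads against 2513828 to 7385401 with cetuximab. The normalised signal of a region is a number of reads multiplied by a factor of the library, and no value lay below 1 read, so a region at 1 read may have had none. Signal is the mean over a culture, in which more cells with an open region and a more open region per cell cannot be told apart. The 6 squamous marker genes KRT5, KRT14, TP63, DSG3, CDH1 and KRT6A all had a promoter region. Their summed signal in SCC1 was 251 to 323 with PBS and 311 to 473 with cetuximab. In SCC6 it was 126 to 139 and 110 to 148, and in SCC25 304 to 350 and 281 to 328. Single genes differed from the sum. In SCC6 the mean signal was 1.66 with PBS and 1.82 with cetuximab at KRT14, and 0.988 and 0.977 at DSG3, against 79.8 and 52.1 at CDH1. In SCC1 the means of DSG3 (42.8 to 19.8) and TP63 (37.3 to 28.1) fell with cetuximab, while those of KRT5, KRT14, CDH1 and KRT6A rose. Of 7 markers of other cell types that could be present in a culture, only COL1A1, a collagen gene of fibroblasts, had a promoter region. Its signal was higher with cetuximab without overlap in SCC1, at 132 to 176 against 88.5 to 114, and in SCC6, at 120 to 148 against 99.0 to 114, and overlapped in SCC25, at 134 to 172 against 122 to 143. The part of this in the changes with treatment was not tested.

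The sequences of 5 member regions are shown because large changes with cetuximab or large differences between lines fell on them. All are read on the plus strand of GRCh37. Capitals mark matches on either strand to TGANTCA, the AP-1 motif, or to GGAATG, the TEAD motif, which appears as CATTCC when it lies on the minus strand. The first is the whole region in intron 17 of PIK3CA, chr3:178945257-178945465, and holds 1 AP-1 match. The second is the whole region in intron 1 of PIK3CA, chr3:178874541-178874734, and holds none of the motifs searched. The third is the central 300 bases, chr5:67615111-67615410, of the region past the end of PIK3R1, and the fourth the central 300 bases, chr3:138413242-138413541, of the region at exon 14 of PIK3CB. The fifth is the whole region in intron 51 of NF1, chr17:29682962-29683161, which set the lines apart.
PIK3CA intron 17: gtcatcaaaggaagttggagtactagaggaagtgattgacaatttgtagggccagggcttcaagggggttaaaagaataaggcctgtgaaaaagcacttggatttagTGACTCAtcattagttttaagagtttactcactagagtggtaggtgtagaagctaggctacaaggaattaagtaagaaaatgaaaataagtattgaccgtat
PIK3CA intron 1: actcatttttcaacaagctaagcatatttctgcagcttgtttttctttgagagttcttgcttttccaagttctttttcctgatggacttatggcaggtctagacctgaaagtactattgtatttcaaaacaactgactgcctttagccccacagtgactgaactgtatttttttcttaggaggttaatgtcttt
PIK3R1 past the end: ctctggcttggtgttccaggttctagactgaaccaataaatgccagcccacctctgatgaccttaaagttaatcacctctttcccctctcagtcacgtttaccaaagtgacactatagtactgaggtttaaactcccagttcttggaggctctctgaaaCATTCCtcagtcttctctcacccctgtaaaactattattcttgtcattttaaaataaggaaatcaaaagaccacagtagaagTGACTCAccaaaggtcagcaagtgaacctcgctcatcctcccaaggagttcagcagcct
PIK3CB exon 14: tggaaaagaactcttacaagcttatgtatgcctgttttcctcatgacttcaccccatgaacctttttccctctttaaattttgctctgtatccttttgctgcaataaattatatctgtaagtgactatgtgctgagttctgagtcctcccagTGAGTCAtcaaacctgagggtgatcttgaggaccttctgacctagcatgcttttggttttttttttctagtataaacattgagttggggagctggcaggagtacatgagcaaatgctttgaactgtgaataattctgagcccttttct
NF1 intron 51: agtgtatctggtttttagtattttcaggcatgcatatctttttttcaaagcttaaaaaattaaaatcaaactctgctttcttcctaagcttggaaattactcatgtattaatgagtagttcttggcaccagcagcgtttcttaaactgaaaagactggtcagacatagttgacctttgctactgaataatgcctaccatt

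Over the 44 members, the AP-1 motif was found in 12 regions (27.3%), against 33.5% of all regions. The TFAP2 motif GCCNNNGGC was found in 9 (20.5%) against 14.5%, the TEAD motif in 9 (20.5%) against 23.3%, and the ETS motif CGGAAGT in 2 (4.55%) against 2.75%. The AP-1 and TFAP2 matches lay in different kinds of region. Of the 12 members within 1 kb of a start site of a gene, 1 held the AP-1 motif and 7 the TFAP2 motif, whereas of the other 32 members 11 held the AP-1 motif and 2 the TFAP2 motif. The promoter members were also wider and richer in G and C, with a median width of 349.5 bp and a median GC content of 67.2%, against 236 bp and 40.5% for the others. A match is a stretch of letters and not a bound factor.

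The authors called peaks in each library separately, and the 44 regions were not equally open in the 3 lines. Peaks in all 3 lines were listed for 14 members (31.8%, against 29.1% of all regions), among them the promoter regions of all 7 genes. Another 14 members had peaks in SCC6 libraries only (31.8%, against 30.4%), of which 5 lay at NF1 and 4 at BRAF. The only member with peaks in SCC25 alone was the intron 1 region of PIK3CB (2.27%, against 13.3%), and none had peaks in SCC1 alone (0, against 1.45%). Peaks in SCC6 and SCC25 but not SCC1 were found for 11 members (25%, against 17.1%), in SCC1 and SCC25 for 3 and in SCC1 and SCC6 for 1. The number of peaks per library moved with depth, from 13035 to 36033 in SCC1, from 47441 to 101272 in SCC6 and from 18642 to 81963 in SCC25, so that absence of a peak in SCC1 is also a matter of detection. A peak in every library was found for 4 members (9.09%, against 4.72%): the promoter regions of PIK3CA and PIK3CB, a region 15.8 kb upstream of PIK3CA and the exon 14 region of PIK3CB. At the other end, a region in intron 2 of PIK3R1 stood at 1 read in all 17 libraries although 3 SCC6 libraries listed a peak there. The map of regions by distance from the start site shows the strongest promoter region of each gene and the regions within BRAF and NF1 with peaks in SCC6 only.

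**Figure D1:**
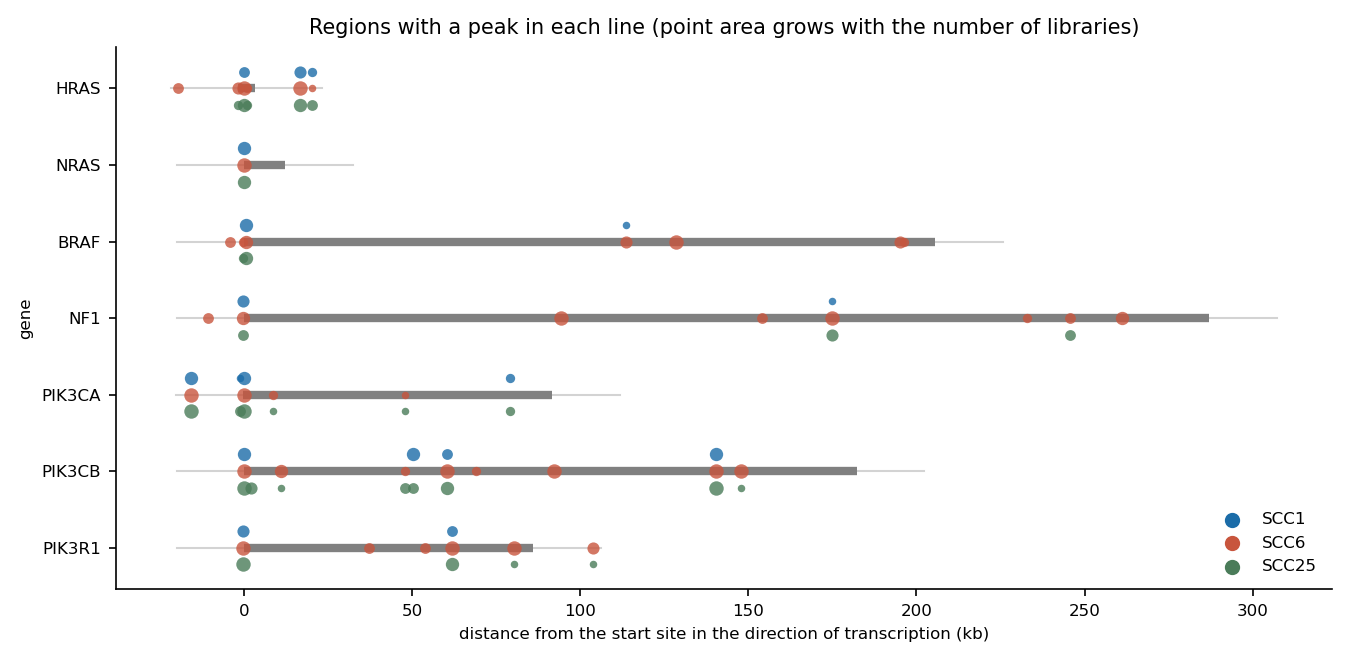
Position of the 44 member regions relative to the start site of each gene (kb, along the direction of transcription) in SCC1, SCC6 and SCC25. The area of each point is the number of libraries of the line with a peak, the grey bar is the gene body and the thin line the window of 20 kb on either side. The strongest promoter region of each of the 7 genes has peaks in all 3 lines, whereas 14 regions have peaks in SCC6 only.

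Each comparison used limma on log2(signal + 1), with the 25% of regions lowest in mean signal left out and p-values adjusted by Benjamini-Hochberg over all regions tested. A region is called where its adjusted p was under 0.05, and fold changes are on the log2(signal + 1) scale, which understates changes of low regions. Of the 44 members, 29 passed the filter in every fit, 10 in some and 5 in none. The 5 never tested were 2 regions at BRAF and 1 each at NF1, PIK3CB and PIK3R1, all with peaks in SCC6 only.

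The promoter regions of the 7 genes came first in signal at PIK3CA, whose product is the catalytic subunit p110 alpha, with a mean over the 17 libraries of 377 over 1211 bp. PIK3R1, encoding the regulatory subunit p85 alpha, followed with 231 over 1065 bp and PIK3CB, encoding p110 beta, with 213 over 926 bp. HRAS and NRAS, both RAS GTPases, had means of 117 and 81.6, BRAF, the RAF kinase that acts below them, 74.0, and NF1, the inhibitor of RAS, 54.5. Signal sums the reads over a region, so part of this order is one of width. Among the promoter regions of all genes these means ranked from the 37.7th percentile for NF1 to the 97.6th for PIK3CA.

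In SCC1, the promoter region of HRAS was the one of the 7 that changed with cetuximab. The region, chr11:535481-535861 at exon 1, had a signal of 63.8 and 91.6 in the PBS libraries and of 162, 119 and 171 with cetuximab. All 3 treated libraries lay above both controls. The change was 0.95 ± 0.24 on the log2 scale (SE, 95% interval 0.48 to 1.43, adjusted p = 0.00267 by limma), but without SCC1 PBS replicate 1 it was 0.69 with an adjusted p of 0.267. In a fit in which each library was centred within classes of GC content, the HRAS promoter change was 0.56 (adjusted p = 0.106), and its GC content of 79.0% was the highest of the members. Promoter regions of all genes moved the same way in SCC1, 13.6% being called higher and 1.6% lower. In SCC6, the HRAS promoter went from 133, 128 and 126 with PBS to 97.0, 86.3 and 117 with cetuximab, groups that did not overlap, by −0.37 on the log2 scale (95% interval −0.69 to −0.06, adjusted p = 0.068). It was called with medians centred (−0.56, adjusted p = 0.0057) and without SCC6 cetuximab replicate 3 (−0.49, adjusted p = 0.0253). In SCC25, the groups overlapped, with 117, 85.8 and 131 for PBS and 108, 126 and 129 for cetuximab, and the change was 0.14 (95% interval −0.21 to 0.49).

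The PIK3CA promoter region, chr3:178865463-178866673, was called in SCC6 only. In that line 10.9% of the promoter regions of all genes were called lower and 3.77% higher. There the signal was 347, 337 and 368 with PBS and 271, 294 and 264 with cetuximab, so that all treated libraries lay below all controls. The change was −0.34 ± 0.09 (SE, 95% interval −0.53 to −0.15, adjusted p = 0.00472 by limma). Scaled to regions without a peak, it was −0.12 (adjusted p = 0.354), and centred by GC content −0.26 (adjusted p = 0.052). In SCC1 the change was 0.05 (95% interval −0.24 to 0.34), with PBS at 405 and 450 and cetuximab at 447, 389 and 496. In SCC25 it was −0.14 (95% interval −0.35 to 0.06), and called at −0.44 when scaled to regions without a peak (adjusted p = 0.00759), with PBS at 396, 424 and 409 and cetuximab at 371, 404 and 340. A difference of response between the lines was not called for this region (adjusted p = 0.185).

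The other 5 promoter regions were not called in any line. Of the promoter regions of all genes, 15.2% were called in SCC1, 14.6% in SCC6 and 0.0551% in SCC25. NF1, chr17:29421701-29422018 at exon 1, came nearest in SCC1, from 59.8 and 77.0 with PBS to 104, 89.5 and 128 with cetuximab. These groups did not overlap, and the change was 0.64 (95% interval 0.12 to 1.15, adjusted p = 0.101). It was called in 4 of 16 alternatives, with medians centred (0.84, adjusted p = 0.0171), with edgeR (0.0445), with a replicate block (0.0267) and without SCC1 cetuximab replicate 2 (0.0303). In SCC6 the NF1 promoter had a change of −0.44 (95% interval −0.95 to 0.06), called only with medians centred (−0.63, adjusted p = 0.047), and in SCC25 of −0.09 (95% interval −0.64 to 0.46). NRAS, chr1:115258985-115259686 at exon 1, had changes of 0.21 (95% interval −0.27 to 0.68) in SCC1, 0.04 (−0.35 to 0.43) in SCC6 and 0.16 (−0.28 to 0.60) in SCC25. For BRAF, chr7:140623904-140624492, they were 0.25 (−0.25 to 0.74), −0.03 (−0.41 to 0.35) and −0.21 (−0.74 to 0.31). PIK3CB, chr3:138553152-138554077, gave −0.10 (−0.45 to 0.26), −0.14 (−0.37 to 0.08) and −0.09 (−0.37 to 0.20). PIK3R1, chr5:67510874-67511938, gave −0.12 (−0.54 to 0.29), −0.06 (−0.25 to 0.14) and −0.07 (−0.33 to 0.19). Single alternatives called PIK3CB in SCC1 (−0.49 with GC centring, adjusted p = 0.048) and in SCC6 (−0.33 with medians centred, 0.0233), and PIK3R1 in SCC25 (−0.37 scaled to regions without a peak, 0.0445). With the signal as deposited, the intervals left room for a change of up to about 0.7 at NRAS and BRAF in SCC1 and SCC25. At PIK3CB and PIK3R1 in SCC6 and SCC25 they left room for less than 0.4. These bounds do not hold for other scalings, under which the estimates themselves moved. The plot of promoter signal by library shows these values.

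**Figure D2:**
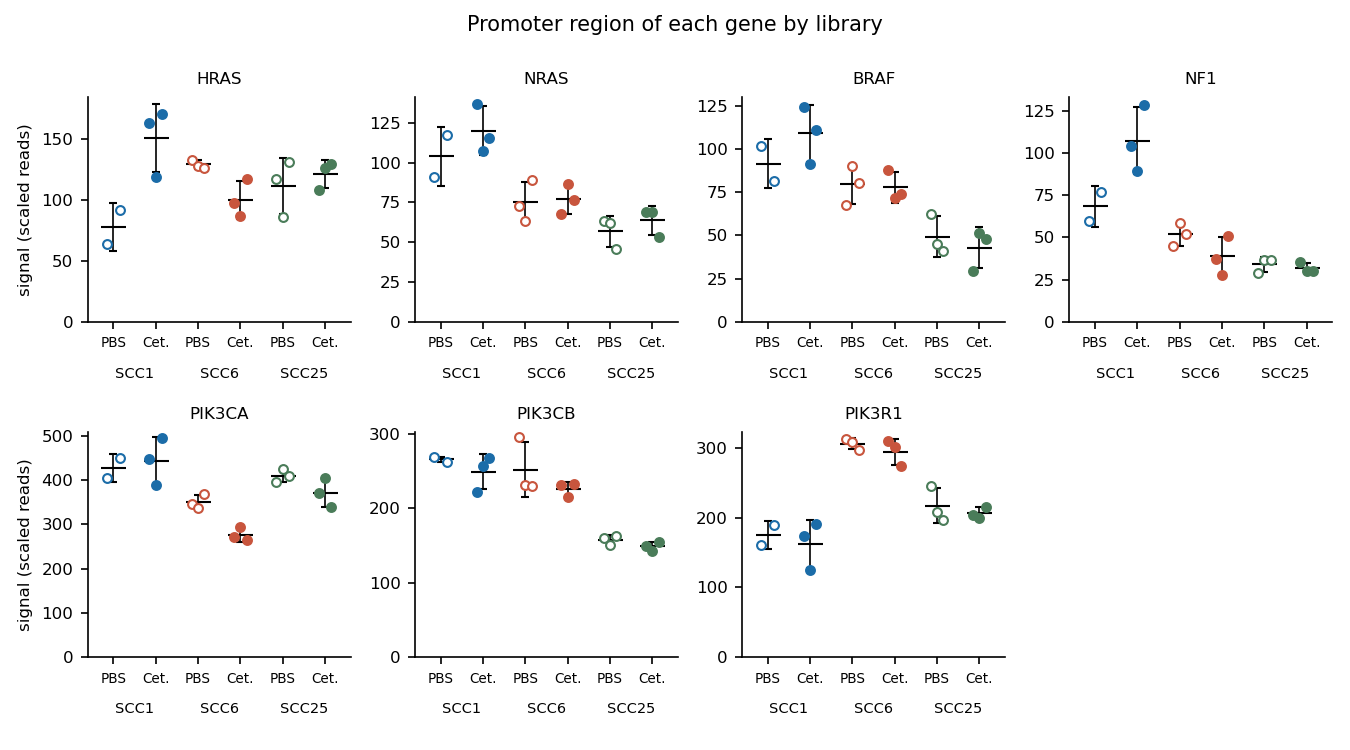
Signal of the promoter region of each of the 7 genes in every library (linear axis), by line, with open points for PBS and filled points for cetuximab, and a bar for the mean ± SD of each group. The SCC1 cetuximab libraries of HRAS (119 to 171) lie above the PBS libraries (63.8 and 91.6), and the SCC6 cetuximab libraries of PIK3CA (264 to 294) below the PBS libraries (337 to 368).

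In SCC1, 5 of the 35 members tested were called, 3 higher and 2 lower, against 11.1% of all regions (4.58% higher and 6.56% lower). The median change of the tested members was 0.25, against −0.09 over all regions. The count depended on single libraries: omitting SCC1 PBS replicate 1 gave 0, omitting SCC1 PBS replicate 3 gave 2 and omitting SCC1 cetuximab replicate 1 gave 3, as did DESeq2. With values centred by GC content, 2 were higher and 3 lower, and with medians centred, 5 and 2.

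All 3 regions called higher lay at HRAS. Besides the promoter region, these were a region 13.2 kb past the end of the gene, between HRAS and RNH1, and a region 17.6 kb before its start at exons 13 and 14 of LMNTD2. The former, chr11:518546-519092, was at 85.9 and 117 with PBS and at 242, 140 and 196 with cetuximab. The groups did not overlap, and the change was 0.90 ± 0.22 (SE, 95% interval 0.47 to 1.33, adjusted p = 0.00183). It was 0.51 (adjusted p = 0.108) when centred by GC content, 0.68 (adjusted p = 0.229) without SCC1 PBS replicate 1 and 0.72 (adjusted p = 0.0802) without SCC1 cetuximab replicate 1. The LMNTD2 region is outside the rule by which regions were named and was chosen after its values were seen. No SCC1 library listed a peak there. Its signal went from 16.9 and 19.0 to 53.3, 25.3 and 54.8, a change of 1.19 ± 0.42 (SE, adjusted p = 0.0448). This call was lost in 8 of 16 alternatives, among them the omission of SCC1 cetuximab replicate 1 (adjusted p = 0.219) or 3 (0.199) or of SCC1 PBS replicate 1 (0.290) or 3 (0.167). The 6 regions around HRAS had a median change of 0.78 in SCC1, and each was above 0. The 216 tested regions within 5 Mb of HRAS had a median of 0.40. Other genes lie in this window, so the regions cannot be assigned to HRAS from their position.

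The 2 regions called lower were in and beyond PI3-kinase genes. In intron 17 of PIK3CA, 79.2 kb from the start site, the signal was 45.5 and 50.2 with PBS and 7.62, 7.79 and 1.56 with cetuximab. These are 35 to 45 reads per PBS library and 1 to 6 per treated library, and a peak was listed in 2 of 2 PBS libraries and in 0 of 3 treated ones. The change was −3.08 ± 0.64 (SE, 95% interval −4.34 to −1.81, adjusted p = 0.00018 by limma), and the ratio of summed reads corrected for depth was 8.48 (95% exact interval 4.5 to 17.7, for counting error only). With only 1 PBS library it was not called, at −3.15 (adjusted p = 0.0578) without SCC1 PBS replicate 1 and −3.01 (adjusted p = 0.0549) without SCC1 PBS replicate 3. The second, 17.4 kb past the end of PIK3R1, went from 27.3 and 27.9 to 3.81, 1.95 and 4.70, or from 21 to 25 reads to 1 to 3 reads per library. The change was −2.73 ± 0.76 (SE, 95% interval −4.21 to −1.24, adjusted p = 0.00706), with a ratio of summed reads of 7.66 (95% exact interval 3.44 to 20.1). Leaving out SCC1 PBS replicate 1 or SCC1 PBS replicate 3 gave an adjusted p of 0.177 or 0.146. No SCC1 library listed a peak at this region. The sequences of both regions given above hold an AP-1 match, which 33.5% of all regions do.

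In SCC6, 8 of the 37 members tested were called, 4 higher and 4 lower, against 27.5% of all regions (16.9% higher and 10.6% lower). The median change was −0.01, against 0.11 over all regions. The split depended on the scaling: it was 3 higher and 7 lower with medians centred, 3 and 4 after quantile normalisation, 4 and 2 centred by GC content, and 7 and 0 when scaled to regions without a peak. Omitting SCC6 PBS replicate 1 or SCC6 PBS replicate 3 gave a count of 4, and omitting SCC6 cetuximab replicate 1 one of 5.

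The highest change was in intron 1 of PIK3CA, 8.49 kb from the start site. The signal was 4.83, 0.669 and 1.09 with PBS and 28.3, 26.9 and 23.8 with cetuximab, or 1 to 4 reads against 28 to 72 reads per library, and peaks were listed in 0 of 3 and 2 of 3 libraries. The change was 3.32 ± 0.56 (SE, 95% interval 2.19 to 4.45, adjusted p = 8.06e-06 by limma), with a ratio of summed reads of 13.7 (95% exact interval 6.12 to 38.0). The region was called in all 17 alternatives. It passed the filter in SCC6 through the cetuximab libraries, so this difference is a description. In PBS libraries of SCC1 and SCC25 the same region was already at 12.3 to 15.6 and at 8.48 to 18.5, and with cetuximab at 13.6 to 24.1 and at 14.3 to 28.3. Within PIK3CB, the region at exon 14, chr3:138413137-138413646, rose from 117, 122 and 132 to 194, 186 and 187, without overlap. The change was 0.61 ± 0.13 (SE, 95% interval 0.35 to 0.87, adjusted p = 0.000333), again called in all 17 alternatives.

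Besides the PIK3CA promoter, the HRAS region past the end of the gene was lower in SCC6, from 147, 143 and 176 with PBS to 95, 129 and 130 with cetuximab. The change was −0.40 ± 0.15 (SE, 95% interval −0.70 to −0.11, adjusted p = 0.0358), and it was lost in 7 of the 17 alternatives, among them without SCC6 cetuximab replicate 1 (−0.26), SCC6 PBS replicate 1 (−0.44, adjusted p = 0.0507) or SCC6 PBS replicate 3 (−0.31). The other 4 calls in SCC6 are outside the naming rule and were chosen after their values were seen. An exon 47 region of NF1, chr17:29667384-29667645, rose from 1.21, 8.03 and 14.1 to 33.3, 21.4 and 27.1, by 2.05 ± 0.49 (SE, adjusted p = 0.00156), with peaks in 0 of 3 PBS and 3 of 3 cetuximab libraries, and was called in all 17 alternatives. A region 16.8 kb past the end of HRAS rose by 1.12 ± 0.43 (SE, adjusted p = 0.0499), from 3.62, 25.4 and 15.2 to 26.3, 24.1 and 28.8, and here the groups overlapped. Next to the PIK3CA promoter, a region 1.03 kb before the start site was lower, at 65.2, 54.9 and 63.1 with PBS and 47.5, 34.4 and 38.0 with cetuximab (−0.61 ± 0.23, SE, adjusted p = 0.045). The intron 17 region of PIK3CA was lower by −1.35 ± 0.53 (SE, adjusted p = 0.0492), from 13.3, 16.7 and 12 to 3.03, 8.36 and 4.30. This region passed the filter in SCC6 through the PBS libraries, so its difference is a description. The calls of these last 3 regions lay close to the threshold and were lost in 13, 7 and 9 of 17 alternatives. In the HRAS region only the omission of SCC6 PBS replicate 2 left the call, and without SCC6 PBS replicate 1 its change was 0.40. The region before PIK3CA lost its call without any one library except SCC6 cetuximab replicate 1, and the intron 17 region without any one except SCC6 cetuximab replicate 2, with adjusted p of 0.0623 to 0.171 and of 0.0775 to 0.170.

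In SCC25, 0 of the 34 members tested were called by limma, against 0.315% of all regions, and the lowest adjusted p of a member was 0.384. At an unadjusted p under 0.05 the count was also 0, against 13.2% of all regions, and edgeR and DESeq2 on the recovered reads called 0 as well. This unadjusted count was 3 with medians centred or edgeR, 2 after quantile normalisation or with GC centring, and 1 with DESeq2. It was 11 when scaled to regions without a peak, and 0 with no filter or the replicate block. The median change was −0.09, and −0.08 over all regions. When libraries were scaled to regions without a peak, 8 members were called, all lower, and this scaling moved the median of all regions to −0.37. The intron 17 region of PIK3CA was at 35.0, 16.6 and 27.1 with PBS and 22.5, 19.5 and 10.6 with cetuximab, groups that overlapped, with a change of −0.56 (95% interval −1.32 to 0.21). A peak was listed there in 2 of 3 PBS libraries and in 0 of 3 treated libraries, in a line whose PBS libraries were deeper. At the exon 14 region of PIK3CB, the change was −0.19 (95% interval −0.56 to 0.17), and the upper bound lies below the lower bound of 0.35 in SCC6.

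**Figure D3:**
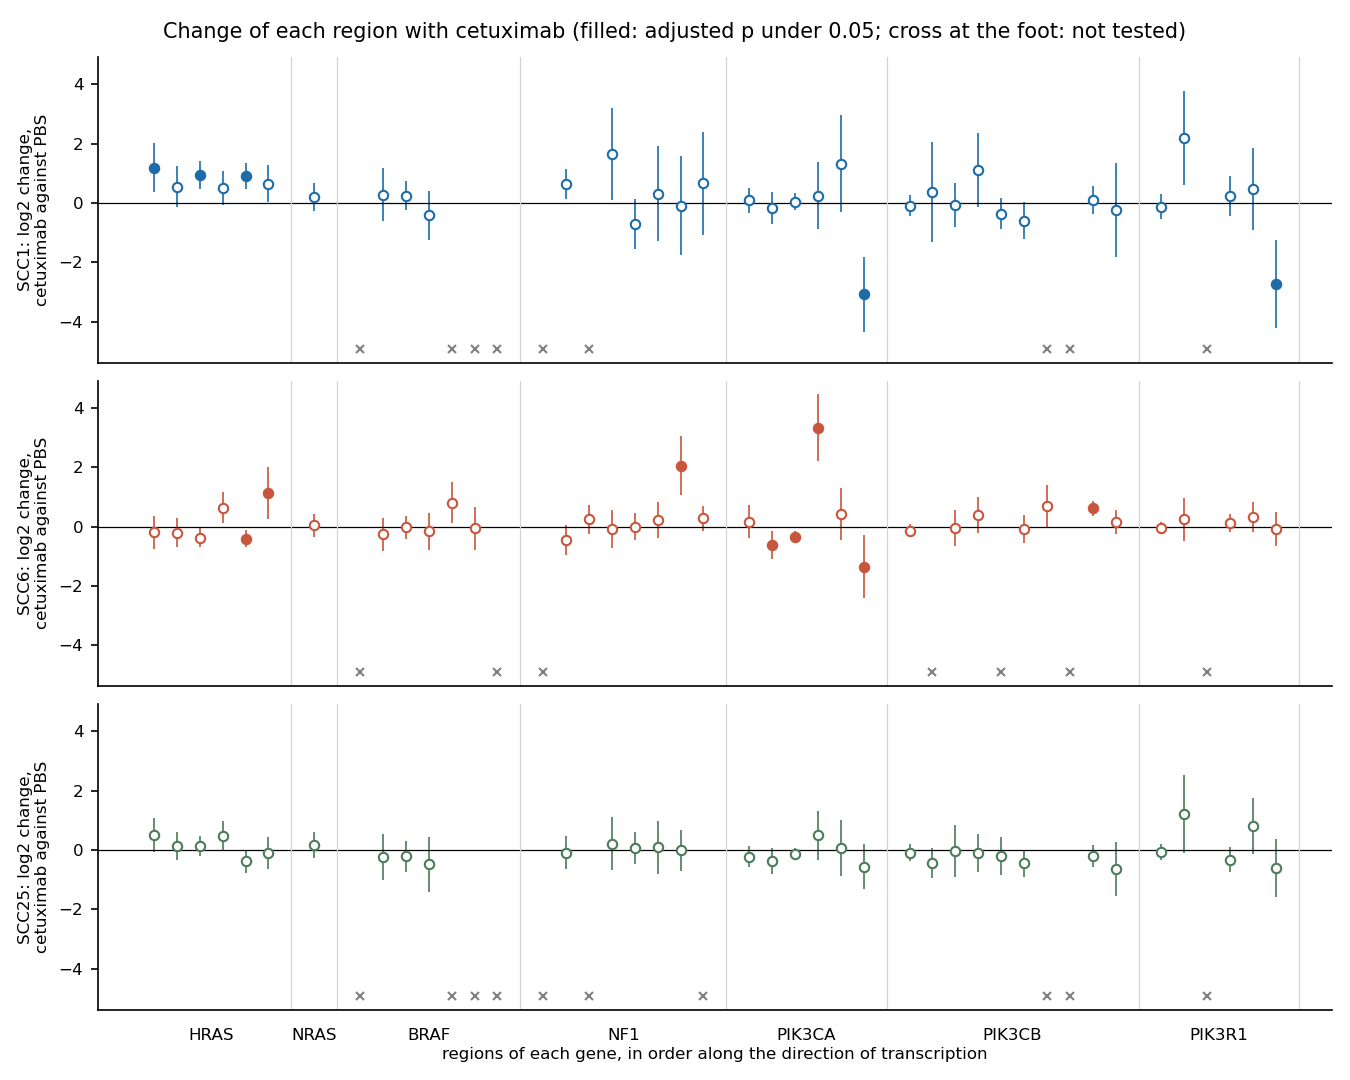
Log2 change with cetuximab against PBS of the member regions in SCC1, SCC6 and SCC25, with the 95% interval from limma. Filled points are called at an adjusted p under 0.05 and crosses at the foot mark regions not tested in that line. The called points are 5 in SCC1, 8 in SCC6 and 0 in SCC25.

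Over all lines with the line as covariate, 3 of 34 members tested were called, 2 higher and 1 lower, against 12.2% of all regions (5.14% higher and 7.04% lower). The intron 17 region of PIK3CA fell by 1.56 ± 0.35 on the log2 scale (SE, adjusted p = 0.00596) and was called in all 27 alternatives. It was lower on average with cetuximab in each line. The intron 1 region of PIK3CA was higher by 1.43 ± 0.39 (SE, adjusted p = 0.0197, and 0.0614 with a replicate block). Over all lines the intron 17 region passed the filter through the PBS libraries and the intron 1 region through the cetuximab libraries. Both differences are therefore descriptions. A region in intron 1 of HRAS, chr11:534664-534880, was higher by 0.54 ± 0.16 (SE, adjusted p = 0.0307), and the call was lost in 7 of 27 alternatives, 5 of which left out SCC1 PBS replicate 1, SCC6 cetuximab replicate 1 or 3, SCC6 PBS replicate 1 or SCC25 PBS replicate 2 (adjusted p = 0.0564 to 0.0651). Its signal was 48.1 and 58.1 with PBS and 74.9, 60.3 and 95.5 with cetuximab in SCC1, and 24.2, 34.1 and 33.7 against 50.5, 37.1 and 57.9 in SCC6. In SCC25 it was 53.1, 28.8 and 40.7 against 49.2, 65.1 and 53.1. The treated libraries lay above the controls in SCC1 and SCC6, and overlapped them in SCC25. No line had a call for this region of its own. Scaled to regions without a peak, 10 members were higher and 1 lower over all lines, and centred by GC content, 1 and 1.

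A test of whether the response differed between lines, the interaction of line and treatment, was called for 6 of 34 members, against 13.2% of all regions. The intron 1 region of PIK3CA had an adjusted p of 0.00343 and was called in all 27 alternatives, with changes of 0.25 in SCC1, 3.32 in SCC6 and 0.49 in SCC25. The region past the end of HRAS had an adjusted p of 0.00347, with 0.90, −0.40 and −0.38, and the HRAS promoter one of 0.00528, with 0.95, −0.37 and 0.14. Both HRAS calls were lost without SCC1 PBS replicate 1, at adjusted p of 0.0561 and 0.0562, and the promoter also with GC centring (0.087) and with scaling to regions without a peak (0.07). The other 3 were the region past the end of PIK3R1, the exon 14 region of PIK3CB and the intron 17 region of PIK3CA, with adjusted p of 0.0261, 0.0332 and 0.0472. Their calls were lost in 7, 10 and 16 of 27 alternatives. Of these losses, 5, 8 and 13 came from leaving out 1 library, with adjusted p of at most 0.0904, 0.0779 and 0.135. Without SCC1 PBS replicate 1 the count was 2, and without SCC6 cetuximab replicate 2 it was 3. The plot of these 6 regions shows the response of each library.

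**Figure D4:**
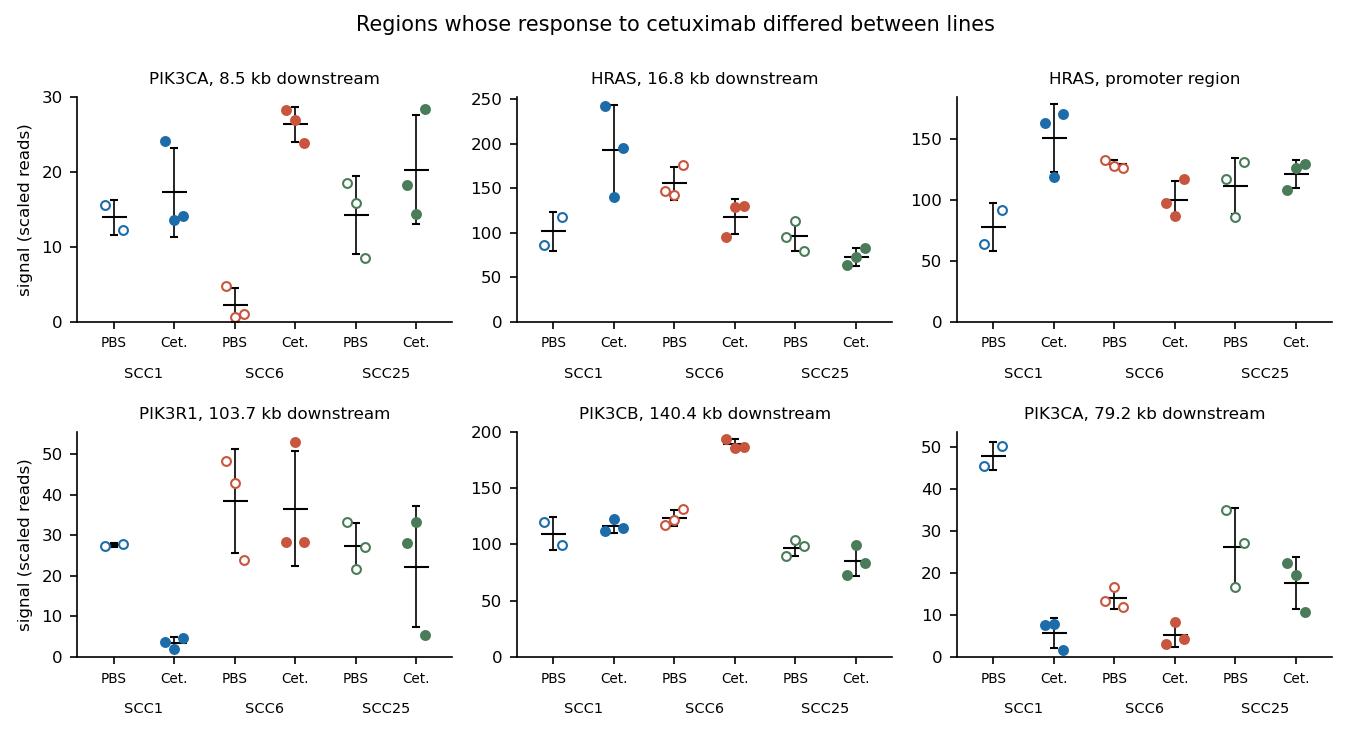
Signal in every library of the 6 regions called for a difference in response between lines, by line, with open points for PBS, filled points for cetuximab and a bar for the mean ± SD. At PIK3CA intron 1 the SCC6 PBS libraries (0.669 to 4.83) lie below all others, and at PIK3CA intron 17 the SCC1 PBS libraries (45.5 and 50.2) lie above all others.

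The lines were compared with PBS alone, where differences were larger than with treatment and most regions of the genome were called. SCC6 differed from SCC1 at 19 of 33 members tested, 12 higher and 7 lower in SCC6, against 61.2% of all regions (30.7% higher and 30.5% lower). SCC25 differed from SCC1 at 18, 9 in each direction, against 51.3% (28.2% higher and 23.1% lower). SCC25 differed from SCC6 at 21, 7 higher and 14 lower in SCC25, against 68.7% (36.7% higher and 32.1% lower). The shares of members, 57.6%, 54.5% and 63.6%, lay near those of all regions, and the directions depended on the scaling. With medians centred, the splits were 9 higher and 13 lower, 5 and 16, and 5 and 17, and scaled to regions without a peak 7 and 16, 12 and 8, and 17 and 2. With GC centring they were 11 and 8 for SCC6 against SCC1 and 6 and 12 for SCC25 against SCC1. Scaling to regions without a peak moved the median over all regions from −0.06 to −0.63, from −0.04 to 0.27 and from 0.06 to 0.97. SCC25 against SCC1 gave 11 calls without SCC1 PBS replicate 1. The 3 comparisons share libraries.

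Single regions stood far apart between lines. The intron 51 region of NF1 was at 85.8, 64.9 and 58.7 in SCC6 PBS libraries, at 1.30 and 2.23 in SCC1 and at 1.51, 2.88 and 0.848 in SCC25. SCC6 was high without overlap, and the other lines stood at 1 to 4 reads per library. The change was 4.68 in SCC6 against SCC1 and −4.74 in SCC25 against SCC6, but the region passed the filter through SCC6, so these differences are a description. The ratios of summed reads were 38.0 (95% exact interval 12.8 to 186) and 39.7 (20.6 to 88.0). With cetuximab it remained high in SCC6, at 91.9, 109 and 57.9. The intron 8 region of NF1, chosen after its values were seen, was also at 38.8 to 49.5 in SCC6 PBS libraries, at 1.30 and 5.58 in SCC1 and at 1 read in each SCC25 library. Against a floor of 3 reads per library, NF1 intron 8 was at least 22.6-fold higher in SCC6 than in SCC25. With GC centring its difference between SCC6 and SCC1, 3.52 otherwise, was 0.49. It too passed the filter through SCC6. In SCC6 against SCC1, the intron 36 region of NF1, with peaks in all 3 lines, was at 0.57 (adjusted p = 0.080) and the NF1 promoter at −0.39 (adjusted p = 0.168), neither of which was called. The 259 regions within 5 Mb of NF1 had a median of 0.09.

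The intron 1 region of PIK3CB had the opposite distribution and stood high in SCC25, at 59.2, 53.4 and 62.8 with PBS and 54.8, 47.5 and 30.1 with cetuximab. In SCC1 it was at 1.30 and 5.58 with PBS and in SCC6 at 1 read in each PBS library. The region passed the filter through SCC25, so its difference is a description. SCC25 was higher than SCC1 by 3.93 and at least 19.7-fold higher than SCC6 against a floor of 3 reads per library. Of the 31-base words of this region, 47.0% occur elsewhere in the genome, so reads of other copies may be counted in it. An intron 2 region of PIK3CB, chr3:138503255-138503696 and chosen after its values were seen, was at 101 and 96.0 in SCC1, at 3.62, 4.01 and 1.09 in SCC6 and at 30.5, 36.8 and 21.2 in SCC25 with PBS. The lines were ordered without overlap, with −4.77 for SCC6 against SCC1 and −1.74 for SCC25 against SCC1. It passed the filter through SCC1 and SCC25, so its differences from SCC6 are a description. This region had 695 other matches in the genome. The PIK3CB promoter itself was lower in SCC25, at 160, 151 and 162, than in SCC1, at 268 and 262 (−0.75, adjusted p = 0.000168), and than in SCC6, at 295, 231 and 229 (−0.66, adjusted p = 8.82e-05). SCC1 and SCC6 were not told apart (−0.09, adjusted p = 0.582).

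At PIK3CA, a region 15.8 kb upstream of the start site, chr3:178850028-178850571 within the non-coding gene PIK3CA-DT, was at 156 and 169 in SCC1, at 136, 131 and 98.4 in SCC25 and at 36.2, 25.4 and 27.2 in SCC6 with PBS. SCC6 was lowest without overlap, by −2.43 against SCC1 (adjusted p = 7.14e-08), and SCC25 exceeded it by 2.01 (adjusted p = 1.26e-07). SCC1 and SCC25 were not called apart (−0.43, adjusted p = 0.101). The sequence is a repeat with 2938 other matches in the genome, and 87.2% of its 31-base words occur elsewhere. The PIK3CA promoter was ordered SCC1 (405 and 450), SCC25 (396, 424 and 409) and SCC6 (347, 337 and 368). SCC6 was below SCC1 by −0.28 (adjusted p = 0.0117), and SCC25 was above SCC6 by 0.23 (adjusted p = 0.02). The former was lost with edgeR (adjusted p = 0.071), without SCC1 PBS replicate 3 (0.115) and with GC centring, where it was 0.0017. The latter was lost in 6 of 18 alternatives: with medians centred (0.424), GC centring (0.109), edgeR (0.0803) or DESeq2 (0.140), and without SCC6 PBS replicate 2 (0.0678) or SCC25 PBS replicate 2 (0.0727). The 390 regions tested within 5 Mb of PIK3CA had a median of −0.39 in SCC6 against SCC1.

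PIK3R1 went the other way and was highest in SCC6. Its promoter was at 313, 309 and 298 in SCC6, at 246, 209 and 198 in SCC25 and at 161 and 190 in SCC1, an order without overlap. SCC6 exceeded SCC1 by 0.81 (adjusted p = 3.38e-05), SCC25 was below SCC6 by −0.50 (adjusted p = 0.000783) and above SCC1 by 0.31 (adjusted p = 0.0467). The last of these calls was lost in 9 of 18 alternatives, turned to −0.17 with medians centred and was lost without any one of SCC1 PBS replicate 1 and the other PBS libraries of SCC6 and SCC25 except SCC25 PBS replicate 3 (adjusted p = 0.0538 to 0.311). Scaled to regions without a peak, SCC6 exceeded SCC1 by 0.21 (adjusted p = 0.120) and lay below SCC25 by 0.43. A region in intron 4, chr5:67573138-67573594, had the same order, with 157, 101 and 108 in SCC6, 70.5, 63.5 and 78.0 in SCC25 and 40.3 and 44.7 in SCC1. It was higher in SCC6 than in SCC1 by 1.47 (adjusted p = 1.91e-05) and in SCC25 than in SCC1 by 0.72 (adjusted p = 0.0101, and 0.057 without SCC1 PBS replicate 1). The 177 regions tested within 5 Mb of PIK3R1 had a median of 0.23 in SCC6 against SCC1.

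At the RAS and RAF genes, the NRAS promoter was at 91.1 and 117 in SCC1, at 72.5, 63.6 and 89.2 in SCC6 and at 63.3, 62.0 and 45.8 in SCC25. Neighbours in this order were not called apart between SCC1 and SCC6 (−0.47, adjusted p = 0.0728) or between SCC6 and SCC25 (−0.39, adjusted p = 0.0851), while SCC25 was below SCC1 by −0.86 (adjusted p = 0.00378, and 0.0538 without SCC1 PBS replicate 3). The BRAF promoter had 101 and 81.5 in SCC1, 67.7, 90.3 and 80.5 in SCC6 and 62.6, 44.7 and 40.7 in SCC25. SCC25 was below both, by −0.89 from SCC1 (adjusted p = 0.00367) and −0.69 from SCC6 (adjusted p = 0.00631), and SCC6 and SCC1 overlapped (−0.20, adjusted p = 0.454). The HRAS promoter was lowest in SCC1, where SCC6 exceeded it by 0.75 (adjusted p = 0.004) and SCC25 by 0.51 (adjusted p = 0.0403). Without SCC1 PBS replicate 1 these were 0.49 (adjusted p = 0.0748) and 0.26 (0.379), and with medians centred 0.41 (0.0667) and 0.03 (0.884). The former was also lost when scaled to regions without a peak (0.15, adjusted p = 0.485). The latter was also lost with no filter (0.0561), with DESeq2 (0.0928) and without SCC6 PBS replicate 2 (0.0543), SCC25 PBS replicate 1 (0.125) or SCC25 PBS replicate 3 (0.158). SCC25 and SCC6 were not called apart there (−0.23, adjusted p = 0.253). The HRAS region past the end of the gene was highest in SCC6, by 0.62 from SCC1 (adjusted p = 0.00914), and SCC25 was below SCC6 by −0.70 (adjusted p = 0.00161). The difference from SCC1 was lost without SCC1 PBS replicate 1 (adjusted p = 0.131), with medians centred (0.29, adjusted p = 0.174) and when scaled to regions without a peak (0.02, adjusted p = 0.918), and the latter scaling turned the difference from SCC25. The NF1 promoter was highest in SCC1, at 59.8 and 77.0, then SCC6, at 44.7, 58.2 and 52.2, then SCC25, at 28.6, 36.8 and 36.5. SCC25 was below SCC1 by −0.99 (adjusted p = 0.00293) and below SCC6 by −0.59 (adjusted p = 0.0227). The latter was lost without SCC6 PBS replicate 2 (0.0854) or SCC25 PBS replicate 1 (0.0839). Scaled to regions without a peak, the promoters of all 7 genes were higher in SCC25 than in SCC6.

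**Figure D5:**
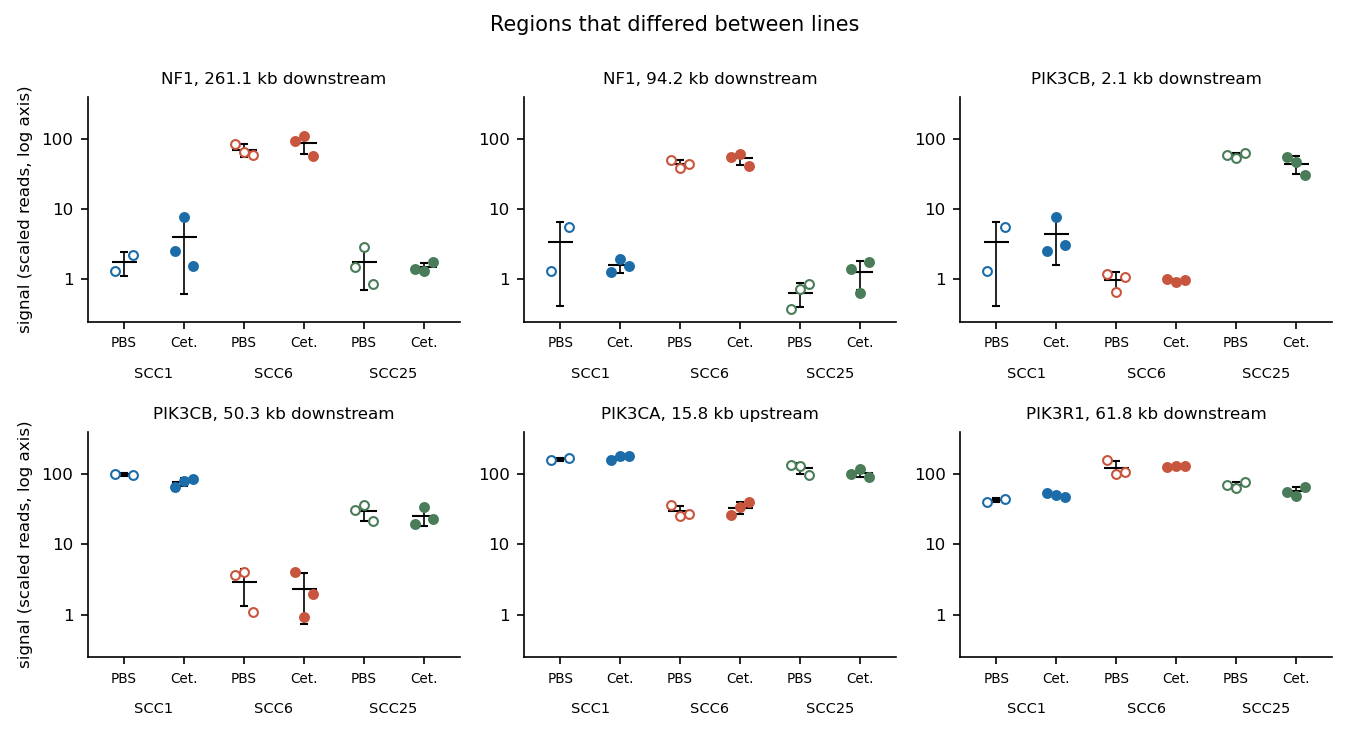
Signal in every library (log axis) of 6 regions that differed between the lines, with open points for PBS and filled points for cetuximab. NF1 regions are high in SCC6 (38.8 or above in every library), the PIK3CB region 2.06 kb downstream of the start site is high in SCC25 (30.1 or above), and the PIK3CB region 50.3 kb downstream is high in SCC1 (66.0 or above).

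The genes around the members in the pathways were described by the promoter regions of 20 genes on the RAS and MAPK side, from the adaptors SHC1 and GRB2 to the MAP kinase MAPK3, and of 20 genes on the PI3K and AKT side. All 40 had a promoter region, and 19 and 20 were tested. In SCC1, 5 and 7 of them were called, all higher, against 15.2% of the promoter regions of all genes (13.6% higher), and the medians were 0.47 and 0.48 against 0.18 over all promoter regions. The smallest p-values were at SHC1, an adaptor that links receptors to RAS (0.88, adjusted p = 2.79e-05), and the RAS-related GTPase RRAS (0.83, adjusted p = 3.06e-05). The SHC1 region is shared with CKS1B. On the PI3K side they were at PIK3R2, which encodes the regulatory subunit p85 beta (1.05, adjusted p = 7.42e-05), and TSC1, an inhibitor of mTOR signalling (1.49, adjusted p = 0.000105). The TSC1 region is shared with GFI1B. With GC centring the counts were 3 and 4 and the medians 0.10 and 0.13. SCC1 had 2 PBS libraries, and how these calls depend on single libraries is not reported here.

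In SCC6, 3 and 4 were called, all lower, against 14.6% of all promoter regions (3.77% higher and 10.9% lower), among them the RAF kinase ARAF (−0.54, adjusted p = 0.0233). On the PI3K side they included MLST8, a subunit of the mTOR complexes (−0.79, adjusted p = 0.00644). Here the direction hung on the scaling: with GC centring 2 were higher on the RAS side and 1 lower on the PI3K side, and scaled to regions without a peak 2 were called on the RAS side, both higher, and 3 on the PI3K side, 2 of them higher. In SCC25, 0 and 0 were called by limma, against 0.0551% of all promoter regions, with 3 and 3 at an unadjusted p under 0.05 and none by edgeR or DESeq2. Scaled to regions without a peak, 4 and 3 were called in SCC25, all lower. Over all lines, SHOC2, a scaffold that activates RAF, was lower (−0.18, adjusted p = 0.0178). PDPK1, the kinase that activates AKT (0.56, adjusted p = 0.0207), and TSC1 (0.55, adjusted p = 0.0402) were higher, against 3.86% of all promoter regions called. The SHOC2 region is shared with BBIP1. A difference of response between lines was called for 6 and 9, against 13.5% of all promoter regions. Between the PBS libraries of SCC6 and SCC1, 7 and 13 were called (5 and 10 higher in SCC6) against 49.6% (28.4% higher and 21.2% lower). Between SCC25 and SCC1 they were 10 and 10 (3 and 5 higher in SCC25) against 50.3% (19.1% higher and 31.2% lower). Between SCC25 and SCC6 they were 14 and 13 (1 and 4 higher in SCC25) against 61.1% (18.8% higher and 42.3% lower). How these counts and directions between lines depend on the scaling is not reported here.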

How the data were processed

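Libraries of 3 cell lines treated with cetuximab or PBS were analysed. Per the submitters' processing notes, the authors trimmed reads with Trim Galore 0.5.0, aligned them to GRCh37 with Bowtie2 2.3.2, used Picard 2.18 and SAMtools 1.9, and called peaks with MACS2. The authors deposited a table of normalised signal over the regions of all libraries and, per library, peak lists with fold enrichment and −log10 p and q values. Every deposited signal was a whole number of reads (tolerance 0.001) times a factor of its library, with a minimum of 1 read. The counts recovered in this way were used as depth and for edgeR and DESeq2.

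log2(signal + 1) was tested with limma 3.58.1 in R 4.3.3 (trend and robust options, two-sided), after the 25% of regions with the lowest mean were left out, with Benjamini-Hochberg adjustment over all regions. Treatment was fitted within each line from the libraries of that line alone. All lines were fitted with line as covariate, the interaction by an F-test, and the PBS libraries in 1 fit. Tests were checked on simulated data. Alternatives were edgeR 4.0.16, DESeq2 1.42.0, no filter, other pseudocounts and scalings, a replicate block, 1 fit of all libraries and leaving out each library. Matches elsewhere in the genome were found with minimap2 2.31 and exact words of 31 bases.

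Regions named were the promoter region of each gene (highest mean signal within 1 kb of a start site), the 2 higher and 2 lower calls with the smallest adjusted p in each treatment contrast, the 3 with the smallest for the interaction, and the region of each gene with the smallest p between lines. The members and lists were chosen with earlier results of these data known. The promoter region of RRAS2 did not pass the filter, and SCC1 PBS replicate 2 was not analysed here. Some results are not reported here.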

Additional observations from a re-analysis of the deposited data

Results flagged for a closer look

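At 6 of the 34 member regions tested, the response to cetuximab differed between the 3 lines by the interaction test of limma. The test was adjusted over all regions, of which 13.2% were called. At the intron 1 region of PIK3CA (adjusted p = 0.00343) SCC6 alone was called, higher in 3 of 3 treated libraries than in every SCC6 control. Its change was 3.32, against 0.25 in SCC1 and 0.49 in SCC25. The SCC6 change is a description, since the region passed the filter in SCC6 through the treated libraries. The region past the end of HRAS (adjusted p = 0.00347) was higher with cetuximab in SCC1 and lower in SCC6, with every treated library on its side of the controls in both lines, and the HRAS promoter (adjusted p = 0.00528) was higher in SCC1 and at −0.37 in SCC6. The region past the end of PIK3R1 (adjusted p = 0.0261) was lower in 3 of 3 treated SCC1 libraries, at −2.73 against −0.07 in SCC6 and −0.60 in SCC25. The exon 14 region of PIK3CB (adjusted p = 0.0332) was higher in 3 of 3 treated SCC6 libraries. The intron 17 region of PIK3CA (adjusted p = 0.0472) was lower in all 3 treated libraries of SCC1 and of SCC6 than in their controls, by −3.08 and −1.35. In SCC6 this is a description, since the region passed the filter there through the PBS libraries. The region stood at −0.56 in SCC25 with overlapping groups, and this interaction call was lost in 16 of 27 alternatives. Without SCC1 PBS replicate 1, 2 of the interaction calls over the members were left.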

How the results depend on the processing

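The member counts in SCC25, 0 in each fit that left out 1 library, and between lines kept within 1.5 times of their value in all alternatives with 2 exceptions. SCC25 had 8 when scaled to regions without a peak, and SCC25 against SCC1 had 11 without SCC1 PBS replicate 1. Leaving out 1 library gave 0 to 7 in SCC1, 4 to 8 in SCC6, 2 to 4 over all lines, 2 to 7 for the interaction, and 15 to 21, 11 to 18 and 16 to 21 for SCC6 against SCC1, SCC25 against SCC1 and SCC25 against SCC6. DESeq2 called 3 in SCC1 and gave no adjusted p for the region past PIK3R1. SCC6 had 4 with no filter and 5 in 1 fit of all libraries. Over all lines the count was 5 with no filter, 11 scaled to regions without a peak and 1 with the replicate block, and the interaction had 15 scaled to regions without a peak. Where a fit left 1 PBS library in SCC1, that library was assumed to vary like the others. Deviations of same-numbered libraries from their group means correlated at −0.042 to 0.0265 over 8 pairs. Libraries of different number were not compared in this way, so these values cannot decide whether the libraries were paired. With the replicate block, the counts were 7 in SCC1, 8 in SCC6, 0 in SCC25, 1 over all lines, 8 for the interaction and 17, 16 and 18 between lines. Of the values of single regions under alternatives, 1605 kept direction and side of the threshold, 146 lost the threshold, 44 gained it and 57 changed sign. Sign changes with cetuximab were at promoters that were not called. With DESeq2 they were at NRAS in SCC6 (−0.0449) and PIK3CB in SCC1 (0.00212), with edgeR at NRAS in SCC6 (−0.00709), with quantile normalisation at NRAS in SCC6 (−0.0579) and PIK3CA in SCC1 (−0.00236), and with the replicate block at PIK3R1 in SCC1 (0.0579). With GC centring they were at BRAF in SCC1 (−0.0606) and SCC6 (0.0923), PIK3CA in SCC1 (−0.0657), PIK3CB in SCC6 (0.0177) and PIK3R1 in SCC6 (0.107). With medians centred they were at NRAS in SCC6 (−0.144), NF1 in SCC25 (0.0271), PIK3CB in SCC1 (0.110) and SCC25 (0.0311), and PIK3R1 in SCC1 (0.0820) and SCC25 (0.0495). Scaled to regions without a peak they were at HRAS (−0.157) and NRAS (−0.133) in SCC25, at BRAF (0.195), PIK3CB (0.0806) and PIK3R1 (0.170) in SCC6 and at PIK3CA in SCC1 (−0.00398). Leaving out 1 library turned promoters, with ranges over libraries of −0.358 to 0.0321 for BRAF in SCC25 and −0.138 to 0.0675 in SCC6, −0.0352 to 0.265 for HRAS in SCC25, −0.0704 to 0.171 for NRAS in SCC6, −0.0330 to 0.142 for PIK3CA in SCC1, and −0.248 to 0.0579 for PIK3R1 in SCC1 and up to 0.0241 in SCC25. Between lines, scaling to regions without a peak turned SCC25 against SCC6 at the region past HRAS (0.233), at PIK3R1 intron 4 (0.170) and at the promoters of HRAS (0.695), NRAS (0.530), BRAF (0.229), NF1 (0.321), PIK3CB (0.268) and PIK3R1 (0.434), and SCC25 against SCC1 at the region past HRAS (0.255), at NF1 intron 51 (0.158) and at the PIK3CA promoter (0.275). GC centring turned the NRAS (0.102) and PIK3CA (0.00171) promoters in SCC6 against SCC1, and NF1 intron 51 (0.0859), PIK3R1 intron 4 (−0.269) and the PIK3CA promoter (0.168) in SCC25 against SCC1. In the last comparison, the PIK3CA promoter also turned after quantile normalisation (0.0302) and the PIK3R1 promoter with medians centred (−0.173). Leaving out 1 library turned the region past HRAS (−0.299 to 0.146), NF1 intron 51 (−0.342 to 0.194) and the PIK3CA promoter (−0.135 to 0.0177) there. The causes were not tested. Depth limits the low regions, whose values rest on 1 to 6 reads per library in the lower group, and SCC1 most, with 2 PBS libraries and the fewest reads.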

Other observations

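Over the 17 libraries, the promoter region of another gene whose log2 signal followed each member promoter most closely was searched among 15516 promoter regions. The libraries share lines and depths, and the correlations are descriptions across libraries. PIK3CB was followed most closely by WWOX (Pearson's r = 0.967), PIK3R1 by TCEA2 (0.967), BRAF by ADAMTSL4 (0.958), NF1 by UVSSA (0.95), NRAS by ALS2CL (0.941) and PIK3CA by HCAR2 (0.928). The signal of the HCAR2 region was only 1.01 to 26.7 over the libraries, and that of the TCEA2 region 1.95 to 213. The lowest of these values stand at 1 read, so these correlations rest in part on low values. HRAS had no promoter region with r over 0.9, and the closest was the region shared by C11orf68 and DRAP1 (0.887). For PIK3CB, 270 promoter regions had r over 0.9, and for BRAF 146, for PIK3R1 77, for NF1 76, for NRAS 38 and for PIK3CA 9.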
